A study of Mus musculus with 21 samples.

Results

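A set of 23 genes reached its daily maximum around dawn, the change from the dark to the light phase, in epididymal fat of both germ-free and conventionally raised male mice. The genes were picked by the shape of their daily curve alone. In each arm of the study, a cosine with a period of 24 h was fitted to log2(CPM + 1), where CPM is the read count scaled to the total count of the library. A gene was kept when the fitted amplitude, the height of the curve above its mean, was at least 0.4, when the curve took up at least 0.6 of the variance (R2), and when the fitted peak lay after ZT20 or before ZT5, all in both arms. ZT is zeitgeber time, in hours after lights on. The genes were required to average at least 1 CPM, which 15489 of the 38087 genes in the table did, and 8 genes were set aside by name, the clock genes Arntl, Clock, Npas2, Cry1 and Nfil3 together with Dtx4, Osgin1 and N4bp2l1. The 23 genes are 0.148% of the 15489. Amplitude, peak time and R2 therefore chose the genes, and these are described here without a test. The rule did not compare the level of one arm with that of the other, and that difference was tested. The level over all libraries did enter, through the minimum of 1 CPM and through the 1 added before taking logs.

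The study compared germ-free C57BL/6j mice, raised without any microbes, with conventionally raised C57BL/6j mice, which carry a gut microbiota. All were males aged 15 to 16 weeks with free access to food. Epididymal white adipose tissue was sampled at ZT02, ZT06, ZT10, ZT14, ZT18 and ZT22, and 9 germ-free and 12 conventional libraries were deposited. Germ-free fat had a single library at ZT02, ZT14 and ZT18 and 2 at the other times, and conventional fat had 2 throughout. Nothing in the labels ties a library to its own mouse, and the spread measured here is that between libraries. Means and SDs of an arm were taken over all its libraries and times, so an SD includes the daily change. Germ-free times with 2 libraries weigh more in such a mean.

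Libraries held 28900903 to 48348181 counts in germ-free fat and 24388294 to 37097857 counts in conventional fat. Summed CPM of 10 adipocyte identity genes was 24521 to 34831 in germ-free fat and 23577 to 33037 in conventional fat. Ciliated duct cell genes other than Tppp3 summed to over 5 times their median of all libraries in 2 germ-free libraries (ZT06 replicate 2 and ZT22 replicate 1) and 3 conventional libraries (both at ZT02 and ZT18 replicate 2). Without those 5 libraries, 17 of the 23 genes again met the rule, and Sqle, Fam150b, Glis3, Lonrf3 and Nabp1 were among those that did not. Smooth muscle genes summed to 837 CPM in germ-free ZT22 replicate 2, against 202 to 272 CPM in the rest of that arm. Epididymis, testis and accessory gland genes summed to 416 CPM there and 1525 CPM in conventional ZT10 replicate 2. Liver genes reached 772 CPM in conventional ZT02 replicate 2. Germ-free ZT22 replicate 2 was its arm's highest library for Klb, Sqle, Cdkn1a, Leo1 and Slc16a1. Without it 22 of the 23 genes met the rule. The part of such cells was not tested. In whole tissue, fewer cells of a type and less RNA per cell cannot be told apart.

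The circadian clock of a cell is a loop in which the activators CLOCK and BMAL1 (the product of Arntl) switch on genes through E-boxes, and the repressors REV-ERBα and REV-ERBβ and the activators of the ROR family act on AGGTCA elements with an AT-rich flank. Genes under REV-ERB repression, Arntl among them, are known to peak late in the night and early in the day in mouse tissues. Feeding, temperature and hormones such as corticosterone and insulin add further daily signals to fat. In these libraries Arntl itself, one of the genes set aside, had an amplitude of 2.24 and a peak at ZT22.37 in germ-free fat, against 1.498 and ZT23.18 in conventional fat.

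Promoter sequences, from 250 bases before to 50 bases after the annotated start, were available in RefSeq (GRCm38.p6) for 14 of the 23 genes, as 16 promoters. The 3 promoters printed here are those that held a clock element. Leo1 was the only one of the 14 genes with the ROR response element (RORE), searched as AA, any base and then TAGGTCA, on either strand. It starts 66 bases before the start site, on the strand of the gene, and the shorter TAGGTCA lies within it. Of all 32851 promoters, 0.219% hold this element and 2.61% hold TAGGTCA. Counted by gene, with any promoter of the gene, the shares are 0.259% and 2.97%. The E-box CACGTG lies 200 bases before the start of Slc16a1 and 45 bases before that of Lonrf3. It is held by 7.15% of all promoters and 8.09% of all genes. The windows are chr9:75441274-75441573 for Leo1, chr3:104638414-104638713 for Slc16a1 and chrX:36328159-36328458 for Lonrf3, all on the + strand, and capitals mark the element.
Leo1: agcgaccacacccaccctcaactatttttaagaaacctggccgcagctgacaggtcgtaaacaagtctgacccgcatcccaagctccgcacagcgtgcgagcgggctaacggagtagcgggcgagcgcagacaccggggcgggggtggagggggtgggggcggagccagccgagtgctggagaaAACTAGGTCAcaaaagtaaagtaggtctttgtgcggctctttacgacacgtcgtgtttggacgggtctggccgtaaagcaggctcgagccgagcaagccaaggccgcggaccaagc
Slc16a1: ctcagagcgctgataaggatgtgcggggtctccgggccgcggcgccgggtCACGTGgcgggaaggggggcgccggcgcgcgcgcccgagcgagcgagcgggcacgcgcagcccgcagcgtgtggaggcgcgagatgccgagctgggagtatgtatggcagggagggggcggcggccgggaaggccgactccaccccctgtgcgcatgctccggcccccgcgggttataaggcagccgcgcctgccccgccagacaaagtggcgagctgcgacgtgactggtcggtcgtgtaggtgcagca
Lonrf3: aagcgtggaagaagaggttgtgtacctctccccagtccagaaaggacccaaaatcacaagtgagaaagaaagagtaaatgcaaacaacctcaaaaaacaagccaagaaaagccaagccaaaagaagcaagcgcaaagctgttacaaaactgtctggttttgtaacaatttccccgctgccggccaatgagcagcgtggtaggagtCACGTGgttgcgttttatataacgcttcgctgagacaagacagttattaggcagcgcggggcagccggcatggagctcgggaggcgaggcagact

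Other motifs were searched on both strands of the same windows. The forkhead motif TGTTTAC was in the promoters of Leo1 and Trim67, and in 3.65% of all promoters (4.05% of all genes). CCAAT was in those of 5 genes, Lonrf3, Xrcc3, Rasl11a, Nabp1 and Sox4, and in 37.4% of all promoters (41.1% of all genes). The RevDR2, a repeat of AGGTCA with any 2 bases between the copies, was in none of the 16 windows and in 0.00913% of all promoters. The D-box TTATGNAA, the cyclic AMP element TGACGTCA and the heat shock element (GAA, any 2 bases, TTC, any 2 bases, GAA) were likewise in none, and in 3.39%, 1.79% and 0.603% of all promoters. A match describes letters in a window and is not a measured binding site.

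The 23 genes were a small share of the rhythmic genes of each arm. By the same amplitude and R2 thresholds at any peak time, 480 genes cycled in germ-free fat and 172 in conventional fat, and 79 in both. A dawn peak was found for 226 genes in germ-free fat and 68 in conventional fat, and 27 had it in both before Arntl, Clock, Npas2 and Dtx4 were set aside. Germ-free fat had 9 libraries and conventional fat 12, and a cosine fitted to fewer libraries meets the R2 threshold more easily. The counts of the arms are therefore not compared. Among the genes nearest the amplitude threshold were Glrx (0.411), Dapk1 (0.411) and Sox4 (0.426) inside it and Klhl13 (0.383) and Aatk (0.382) outside it, each value being the smaller of the amplitudes of the arms. Among those nearest the R2 threshold were Nabp1 (0.604) and Mmp9 (0.618) inside it and Als2cr12 (0.579), Snord14e (0.574) and Cdkn2b (0.563) outside it. When each library in turn was left out, 16 to 31 genes met the rule, and 8 of the 23 did so every time: Cdkn1a, Klb, Xrcc3, Sh3pxd2a, Spon2, Leo1, Adamts4 and Slc16a1.

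By the rule, the low point of a fitted curve fell between ZT8 and ZT17, where ZT10 and ZT14 were the times sampled. By mean level at each time, 17 of the 23 genes were lowest at ZT10 in germ-free fat and 15 in conventional fat, and 6 in each arm were lowest at ZT14. In conventional fat 1 gene was lowest at ZT06 and 1 at ZT18. The highest mean stood at ZT02 for 10 genes, at ZT18 for 7 and at ZT22 for 6 in germ-free fat. In conventional fat it stood at ZT02 for 10, at ZT22 for 10, at ZT06 for 2 and at ZT18 for 1. All ZT22 and ZT02 libraries lay above all ZT10 and ZT14 libraries for 21 of the 23 genes in germ-free fat, against 13.1% of all genes kept, and for 16 of the 23 in conventional fat, against 4.69% of all genes kept. The rule used these same curves, so nothing is read from any of these counts of low points, high points or libraries.

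**Figure D1:**
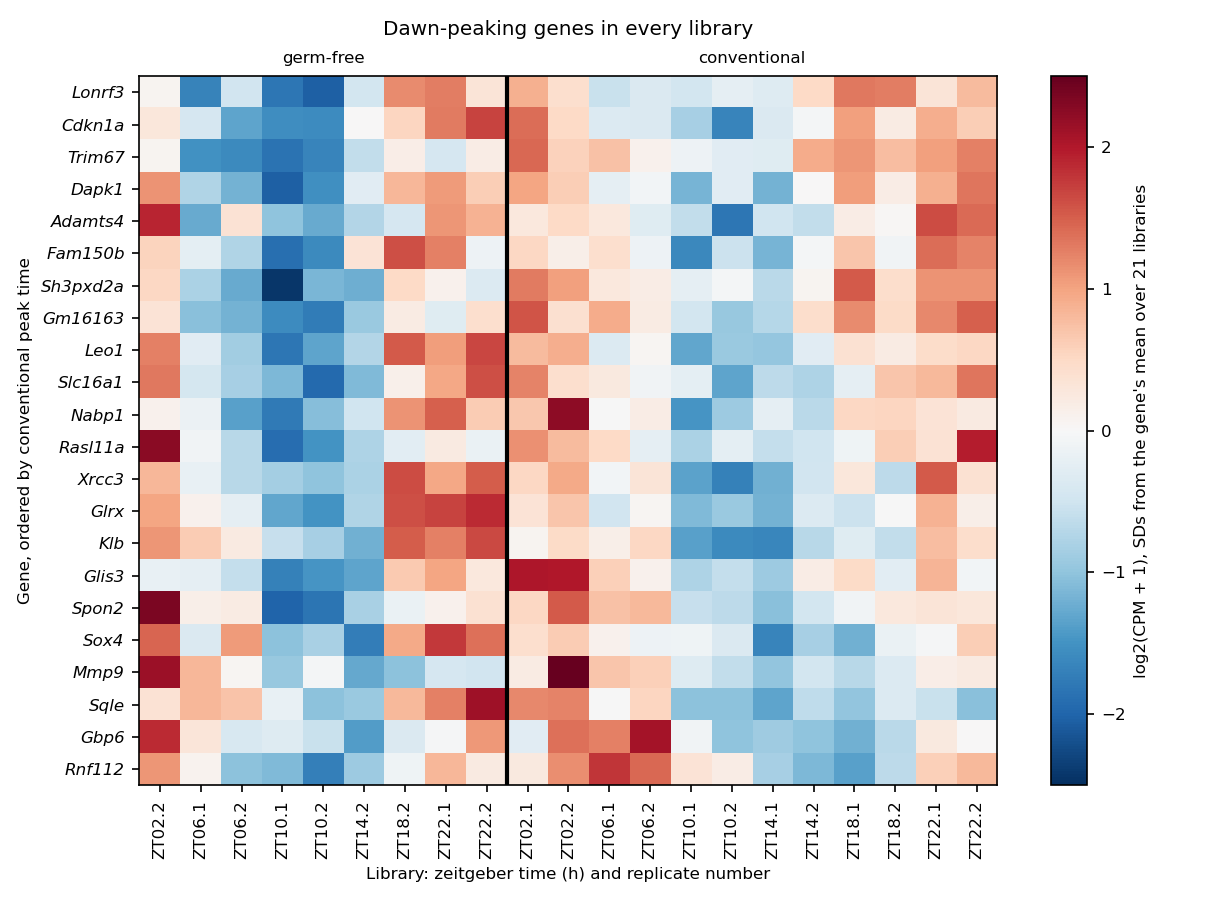
Each row is 1 of 22 of the genes, ordered by its fitted peak in conventional fat, and each column a library, labelled by zeitgeber time (h) and replicate number, with the 9 germ-free libraries left and the 12 conventional libraries right. Colour is log2(CPM + 1) in SDs from the gene's mean over 21 libraries. The blue columns at ZT10 and ZT14 in both arms lie where the rule placed the low point of the fitted curves.

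Fitted amplitudes had a median of 0.70 in germ-free fat and 0.51 in conventional fat. The amplitude was larger in germ-free fat for 21 of the 23 genes, with a median ratio of 1.28 (germ-free over conventional). A set of 41 genes peaking around dusk, chosen by the same thresholds with peaks after ZT8 and before ZT17, gave 33 of 41 with a median ratio of 1.22. Among all 79 genes that cycled in both arms the count was 63, with a median ratio of 1.23. The dawn genes thus had the same direction as the dusk genes. The 79 genes include both of these sets, so they are no separate comparison, and no test of a difference between the sets was made.

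The fitted peak came earlier in germ-free fat for 19 of the 23 genes. The median peak was ZT22.27 in germ-free fat and ZT23.74 in conventional fat, and the median difference was -1.32 h (germ-free minus conventional). The 41 dusk genes peaked earlier in germ-free fat in 35 cases with a median of -0.75 h. The 79 cycling genes, which include the dawn and the dusk genes, did so in 63 cases with a median of -1.02 h. The conventional libraries numbered 1 and those numbered 2 were also fitted apart. Their peaks for the 23 genes differed by a median of 1.03 h in absolute value, against 1.32 h between the arms. Those fits had 1 library per time, fewer than the fits of the arms, so 1.03 h is a rough scale for error. The peak was earlier with number 1 for 9 of the 23 genes. The difference between the arms exceeded its own SE for 15 of the 23 genes and 2 SE for 8. The rule used these peak times, and the genes share the same libraries. The share among the 79 cycling genes was not counted, so nothing is read from these 2 counts. Both ends of the range over single omissions came from germ-free times with 1 library. Without the ZT18 library 18 of 23 genes peaked earlier in germ-free fat, with a median difference of -1.06 h. Without the ZT02 library 20 of 23 did, with a median of -1.76 h, and 17 in place of 21 had the larger amplitude in germ-free fat.

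**Figure D2:**
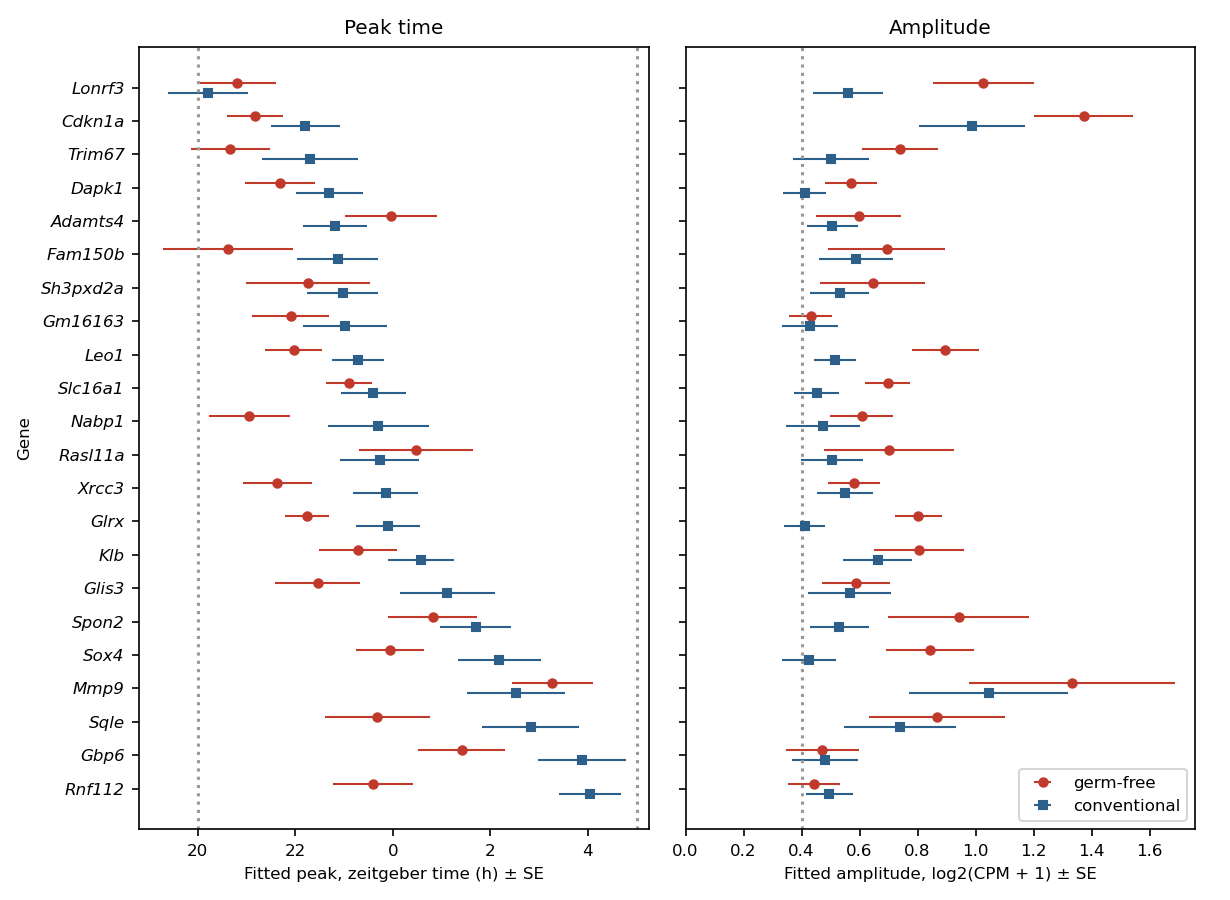
Fitted peak time (zeitgeber time, h, left) and amplitude (log2(CPM + 1), right) of 22 of the genes in germ-free fat (circles) and conventional fat (squares), with bars of 1 SE and dotted lines at the limits of the rule. Most circles lie left of their squares for peak time (19 of 23 in the whole set) and right of them for amplitude (21 of 23 in the whole set), and many bars overlap.

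The first group of genes acts in metabolism and in the response to metabolic hormones. Klb encodes beta-Klotho, the co-receptor that lets fat respond to the hormone FGF21 (chr5:65348314-65384007, + strand). Germ-free fat held 129 CPM of Klb at ZT02, 105 and 86.3 at ZT06, 60.2 and 53.9 at ZT10, 45.4 at ZT14, 155 at ZT18, and 138 and 164 at ZT22. Conventional fat held 80.5 and 97.2 CPM at ZT02, 83.5 and 98.8 at ZT06, 42.1 and 37.8 at ZT10, 37.2 and 57.2 at ZT14, 68.0 and 59.3 at ZT18, and 111 and 95.3 at ZT22. Every germ-free library at ZT18, ZT22 and ZT02 lay above every conventional library of any time, while the arms overlapped at ZT06 and ZT14. The fitted peak was ZT23.29 ± 0.80 h in germ-free fat and ZT0.58 ± 0.68 h in conventional fat (SE), and the amplitude was 0.81 ± 0.15 in germ-free fat and 0.66 ± 0.12 in conventional fat. Over the day Klb averaged 104 ± 45.0 CPM in germ-free fat (SD, n = 9) and 72.3 ± 25.7 CPM in conventional fat (SD, n = 12), and was higher in germ-free fat, with a log2 difference of 0.50 ± 0.12 (SE) and an adjusted p of 0.00708 in edgeR's quasi-likelihood test. The call was lost with the times that had 2 libraries in each arm alone (adjusted p = 0.0780) and with the libraries of replicate number 2 or 1 alone (0.200 and 0.181), and it was kept in every single omission, up to 0.0341. The log2 fold changes in those smaller fits were 0.38 with the times that had 2 libraries, 0.49 with number 2 and 0.46 with number 1. Klb was 1 of 2 genes of the set called higher, in a comparison in which 15.3% of all 18334 genes tested were called higher.

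Sqle, the other gene called higher, encodes squalene epoxidase, an enzyme of cholesterol synthesis (chr15:59315077-59331192, + strand). Germ-free fat held 22.0 CPM of Sqle at ZT02, 28.5 and 26.6 at ZT06, 16.0 and 9.89 at ZT10, 10.4 at ZT14, 28.3 at ZT18, and 36.2 and 58.0 at ZT22. Conventional fat held 35.0 and 36.0 CPM at ZT02, 17.8 and 24.2 at ZT06, 9.89 and 9.81 at ZT10, 8.22 and 12.4 at ZT14, 10.05 and 14.6 at ZT18, and 13.0 and 9.75 at ZT22. The germ-free libraries were already high at ZT18 and ZT22, when the conventional ones were near their lowest, and the order was turned round at ZT02. The fitted peaks were ZT23.68 ± 1.08 h in germ-free fat and ZT2.83 ± 0.99 h in conventional fat (SE), a difference of -3.14 ± 1.47 h. Mean levels were 26.2 ± 14.8 CPM in germ-free fat and 16.7 ± 9.82 CPM in conventional fat (SD, n = 9 and n = 12), and the log2 fold change was 0.69 ± 0.24 (SE; adjusted p = 0.0453, edgeR). That call was kept without conventional ZT02 replicate 1 or 2, ZT06 replicate 2 or ZT14 replicate 2, and without germ-free ZT02, ZT06 or ZT10 replicate 2. It was lost when any 1 of the other 14 libraries was left out, with log2 fold changes of 0.53 to 0.87 and adjusted p up to 0.143 over all omissions.

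Slc16a1 encodes the monocarboxylate transporter MCT1, which carries lactate, pyruvate and ketone bodies across the cell membrane (chr3:104638668-104658462, + strand); its promoter with the E-box is printed above. Germ-free fat held 179 CPM of Slc16a1 at ZT02, 102 and 90.3 at ZT06, 82.3 and 63.2 at ZT10, 82.9 at ZT14, 123 at ZT18, and 160.3 and 197 at ZT22. Conventional fat held 176 and 135 CPM at ZT02, 128 and 114 at ZT06, 109 and 77.3 at ZT10, 95.7 and 92.2 at ZT14, 109 and 147 at ZT18, and 153 and 181 at ZT22. The arms reached the same top range at ZT22 and ZT02, while the germ-free libraries at ZT06 lay below the conventional ones. Peaks were ZT23.10 ± 0.47 h in germ-free fat and ZT23.60 ± 0.66 h in conventional fat (SE), the smallest difference of the set, and the log2 fold change of -0.09 ± 0.10 (SE) did not pass (adjusted p = 0.561, edgeR).

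Glrx encodes glutaredoxin, which uses glutathione to reduce protein disulfides (chr13:75839868-75850154, + strand). Germ-free fat held 10.6 CPM of Glrx at ZT02, 7.49 and 6.58 at ZT06, 4.21 and 3.83 at ZT10, 5.29 at ZT14, 13.4 at ZT18, and 13.8 and 14.8 at ZT22. Conventional fat held 8.22 and 9.45 CPM at ZT02, 5.94 and 7.34 at ZT06, 4.56 and 4.91 at ZT10, 4.40 and 6.26 at ZT14, 5.78 and 7.18 at ZT18, and 10.1 and 7.61 at ZT22. The germ-free curve was the deeper one, with an amplitude of 0.80 ± 0.08 against 0.41 ± 0.07 in conventional fat (SE), and had the highest R2 of the set in germ-free fat, 0.94. Its log2 fold change of 0.32 ± 0.13 (SE) did not pass (adjusted p = 0.0652, edgeR). It passed without conventional ZT06 replicate 2 (0.0442), conventional ZT14 replicate 2 (0.0477) or germ-free ZT06 or ZT10 replicate 2 (0.0497 and 0.0486), with a range over omissions up to 0.279, and it passed in DESeq2 (0.0480) and with a cosine and sine per arm in place of the time factor (0.00817).

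**Figure D3:**
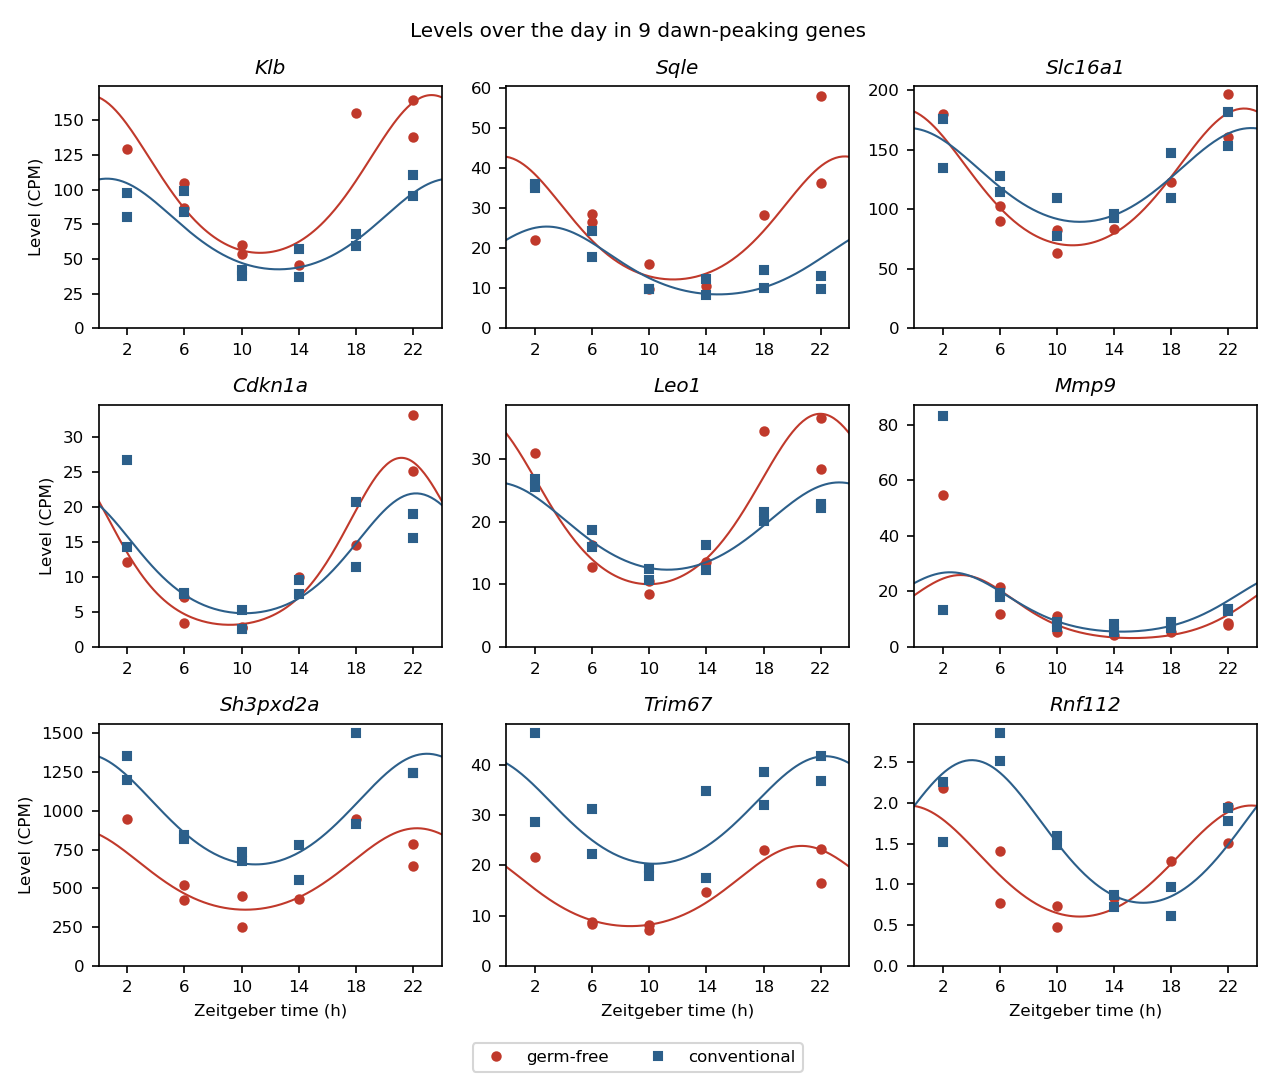
CPM against zeitgeber time (h) for 9 of the 23 genes in germ-free fat (circles) and conventional fat (squares), 1 point per library, with the fitted 24 h cosine of each arm as a line. Klb and Sqle show germ-free libraries above conventional ones at ZT18 and ZT22, Trim67 and Sh3pxd2a show germ-free curves below conventional ones, Mmp9 has 1 high library in each arm at ZT02, and Rnf112 is highest at ZT06 in conventional fat.

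The second group codes for matrix-degrading, matrix-bound and secreted proteins. Sh3pxd2a encodes TKS5, a scaffold of podosomes, the adhesions through which cells degrade matrix (chr19:47260174-47464401, - strand). It had the highest level of the set per length of exon, 78.6 CPM per kb over all libraries, against a median of 5.73 CPM per kb for the 23 genes. Germ-free fat held 949 CPM of Sh3pxd2a at ZT02, 524 and 426 at ZT06, 251 and 449.5 at ZT10, 433 at ZT14, 945 at ZT18, and 788 and 643 at ZT22. Conventional fat held 1355 and 1196 CPM at ZT02, 846 and 819 at ZT06, 678 and 735 at ZT10, 554 and 776 at ZT14, 1499 and 918 at ZT18, and 1244 at ZT22 in both libraries. At every time except ZT18 all germ-free libraries lay below all conventional ones. The mean was 601 ± 247 CPM in germ-free fat and 989 ± 304 CPM in conventional fat (SD, n = 9 and n = 12). It was lower in germ-free fat, at a log2 difference of -0.68 ± 0.12 (SE) with an adjusted p of 8.75e-04 in edgeR, 1 of 3 genes of the set called lower in a comparison in which 11.6% of all genes tested were. The call was lost with replicate number 2 or 1 alone (adjusted p = 0.0673 and 0.0633, edgeR). The log2 fold changes in those smaller fits were -0.56 and -1.02. Over single omissions the adjusted p stayed at or under 0.00228.

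Mmp9 encodes matrix metalloproteinase 9, a gelatinase made mainly by leukocytes such as neutrophils and macrophages (chr2:164940780-164955850, + strand). Germ-free fat held 54.6 CPM of Mmp9 at ZT02, 21.5 and 12.0 at ZT06, 5.51 and 11.2 at ZT10, 4.22 at ZT14, 5.25 at ZT18, and 8.49 and 8.07 at ZT22. Conventional fat held 13.5 and 83.1 CPM at ZT02, 19.4 and 18.2 at ZT06, 9.08 and 7.197 at ZT10, 5.34 and 8.19 at ZT14, 6.81 and 8.98 at ZT18, and 13.1 and 13.7 at ZT22. Its amplitude of 1.33 ± 0.36 in germ-free fat and 1.05 ± 0.27 in conventional fat (SE) was computed with 1 library per arm far above the rest, germ-free ZT02 replicate 2 and conventional ZT02 replicate 2. Mmp9 met the rule without either of them, and the conventional libraries numbered 1 alone gave an amplitude of 0.76 with an R2 of 0.87. It did not meet the rule without conventional ZT14 or ZT18 replicate 1. Replicate 2 at ZT02 had the highest macrophage sum of its arm in both arms (1670 CPM in the germ-free one and 1518 CPM in the conventional one; 9 of 10 listed genes were in the table) and the highest T and NK cell sum (24.8 CPM in the germ-free one and 21.1 CPM in the conventional one, 10 of 10). Conventional ZT10 replicate 1 had nearly the same macrophage sum, 1506 CPM, with 9.08 CPM of Mmp9. Over all libraries the macrophage sum was 920.1 to 1670 CPM in germ-free fat and 943 to 1518 CPM in conventional fat, and the T and NK cell sum was 8.48 to 24.8 CPM in germ-free fat and 9.39 to 21.1 CPM in conventional fat. A sum of 9 neutrophil genes, a list added after the values were seen, was 5.04 CPM in germ-free ZT02 replicate 2 and 5.43 CPM in conventional ZT02 replicate 2, inside the ranges of 2.93 to 5.23 CPM in germ-free fat and 3.08 to 9.01 CPM in conventional fat. Only 1 of the 9 neutrophil genes averaged at least 1 CPM (2.66 CPM), so this sum says little about neutrophils. The part of any of these cell types in the Mmp9 curve was not tested. Between the arms Mmp9 did not pass (log2 fold change -0.26 ± 0.25, SE; adjusted p = 0.472, edgeR).

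Spon2 encodes mindin, a secreted matrix protein that binds bacterial surfaces and integrins (chr5:33198184-33218455, - strand). Germ-free fat held 19.5 CPM of Spon2 at ZT02, 7.05 and 7.21 at ZT06, 2.22 and 2.47 at ZT10, 4.36 at ZT14, 6.02 at ZT18, and 6.88 and 7.86 at ZT22. Conventional fat held 8.39 and 13.6 CPM at ZT02, 9.32 and 9.69 at ZT06, 4.90 and 4.72 at ZT10, 3.85 and 5.24 at ZT14, 6.27 and 7.42 at ZT18, and 7.69 and 7.55 at ZT22. The germ-free ZT02 library was again the highest of its arm, and it also had the highest mesothelial marker sum, 641 CPM, against 228 to 373 CPM in the other germ-free libraries. What that has to do with Spon2 was not tested. Without that library the log2 fold change between the arms was -0.36 (adjusted p = 0.0460, edgeR), while with all libraries it was -0.16 ± 0.16 (SE; adjusted p = 0.489), the range over omissions reaching 0.698.

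Fam150b, also named Alkal2, encodes a secreted ligand of the receptor tyrosine kinase ALK (chr12:30884322-30893854, + strand). Germ-free fat held 16.1 CPM of Fam150b at ZT02, 11.4 and 9.09 at ZT06, 5.41 and 6.19 at ZT10, 14.6 at ZT14, 25.2 at ZT18, and 21.7 and 12.0 at ZT22. Conventional fat held 15.9 and 13.6 CPM at ZT02, 15.2 and 12.0 at ZT06, 6.11 and 9.97 at ZT10, 7.54 and 12.4 at ZT14, 17.1 and 12.2 at ZT18, and 23.0 and 21.6 at ZT22. Both arms were lowest at ZT10, and neither arm stayed above the other through the day, the log2 fold change being -0.02 ± 0.16 (SE; adjusted p = 0.954, edgeR). In the annotation 35.1% of its exonic bases overlap Acp1 on the opposite strand, and the strand setting of the counting is not given, so its values are uncertain. Adamts4 encodes an aggrecanase, a protease that cuts cartilage-type proteoglycans (chr1:171250421-171260637, + strand). Its level ranged from 2.08 to 7.33 CPM with a median of 3.01 in germ-free fat, and from 1.59 to 6.63 CPM with a median of 3.74 in conventional fat. Its peaks were at ZT23.96 ± 0.95 h in germ-free fat and ZT22.81 ± 0.65 h in conventional fat (SE), so that it was among the 4 genes with a later peak in germ-free fat.

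The third group acts in the nucleus, in the cell cycle, DNA repair and transcription. Cdkn1a encodes p21, an inhibitor of cyclin-dependent kinases and a known target of p53 and of glucocorticoids (chr17:29090976-29100727, + strand). Germ-free fat held 12.2 CPM of Cdkn1a at ZT02, 7.201 and 3.48 at ZT06, 2.86 and 2.78 at ZT10, 10 at ZT14, 14.6 at ZT18, and 25.1 and 33.1 at ZT22. Conventional fat held 26.7 and 14.3 CPM at ZT02, 7.67 and 7.56 at ZT06, 5.27 and 2.61 at ZT10, 7.57 and 9.53 at ZT14, 20.7 and 11.5 at ZT18, and 19.0 and 15.6 at ZT22. The germ-free maximum stood at ZT22, where both germ-free libraries exceeded both conventional ones, and at ZT02 the single germ-free library was below both conventional ones. Fitted curves spanned a 6.71-fold range from trough to peak in germ-free fat and a 3.94-fold range in conventional fat, on the CPM + 1 scale, the first being the widest of the set in germ-free fat. Mean levels were close, 12.4 ± 10.6 CPM in germ-free fat and 12.3 ± 7.12 CPM in conventional fat (SD, n = 9 and n = 12; log2 fold change -0.09 ± 0.22, SE; adjusted p = 0.803, edgeR). Cdkn1a was the only one of the 23 genes on the gene lists of pathways used here. Of the 11 glucocorticoid targets, 0 were called higher and 3 lower in germ-free fat (Mt1, Mt2 and Zbtb16), 4 had an unadjusted p under 0.05, and the list had a median log2 fold change of -0.16, against 15.3% higher, 11.6% lower, 38.2% with an unadjusted p under 0.05 and a median of 0.03 for all genes tested.

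Leo1 encodes a subunit of the PAF1 complex, which travels with RNA polymerase II during elongation (chr9:75441524-75466432, + strand), and is the gene with the AGGTCA element printed above. Germ-free fat held 31.0 CPM of Leo1 at ZT02, 16.3 and 12.7 at ZT06, 8.52 and 10.5 at ZT10, 13.5 at ZT14, 34.5 at ZT18, and 28.3 and 36.5 at ZT22. Conventional fat held 25.5 and 26.9 CPM at ZT02, 16.0 and 18.7 at ZT06, 10.6 and 12.4 at ZT10, 12.2 and 16.3 at ZT14, 21.5 and 20.1 at ZT18, and 22.2 and 22.8 at ZT22. At ZT18, ZT22 and ZT02 every germ-free library lay above every conventional library of any time. Its amplitude was 0.90 ± 0.11 in germ-free fat and 0.52 ± 0.07 in conventional fat (SE), and the conventional pairs of Leo1 were the closest of the set (SD within pairs 0.15, log2 scale). Its level over the day did not pass between the arms (log2 fold change 0.16 ± 0.12, SE; adjusted p = 0.345, edgeR).

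Xrcc3 encodes a protein of DNA repair by homologous recombination (chr12:111803192-111813873, - strand). Germ-free fat held 9.52 CPM of Xrcc3 at ZT02, 6.55 and 5.42 at ZT06, 5.10 and 4.78 at ZT10, 5.22 at ZT14, 12.7 at ZT18, and 10.005 and 12.2 at ZT22. Conventional fat held 8.54 and 9.97 CPM at ZT02, 6.88 and 7.91 at ZT06, 4.19 and 3.64 at ZT10, 4.43 and 5.89 at ZT14, 7.83 and 5.49 at ZT18, and 12.2 and 8.07 at ZT22. The germ-free library at ZT18 was the highest of its arm, while the conventional ones at that time were in mid-range. Nabp1 encodes a single-strand DNA-binding protein of the DNA damage response (chr1:51465862-51478425, - strand). Germ-free fat held 129 CPM of Nabp1 at ZT02, 119 and 79.0 at ZT06, 68.8 and 87.3 at ZT10, 105 at ZT14, 182 at ZT18, and 207 and 155 at ZT22. Conventional fat held 157 and 265 CPM at ZT02, 125 and 133 at ZT06, 75.8 and 91.8 at ZT10, 116 and 99.6 at ZT14, 149 and 149.7 at ZT18, and 140.4 and 135 at ZT22. Peaks were earlier in germ-free fat, by a difference of -2.22 h for Xrcc3 and -2.65 h for Nabp1. Levels did not pass for Xrcc3 (log2 fold change 0.20 ± 0.13, SE) or Nabp1 (-0.04 ± 0.12), with adjusted p of 0.297 and 0.842 in edgeR.

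Sox4 encodes a transcription factor of the SOX family with roles in progenitor cells (chr13:28948919-28953713, - strand). Germ-free fat held 49.3 CPM of Sox4 at ZT02, 24.5 and 42.2 at ZT06, 18.9 and 20.6 at ZT10, 14.3 at ZT14, 40.7 at ZT18, and 55.2 and 47.9 at ZT22. Conventional fat held 33.0 and 36.0 CPM at ZT02, 29.3 and 26.8 at ZT06, 26.9 and 24.5 at ZT10, 14.7 and 20.3 at ZT14, 17.7 and 26.5 at ZT18, and 27.9 and 35.6 at ZT22. The amplitude was 0.84 ± 0.15 in germ-free fat and 0.43 ± 0.09 in conventional fat (SE), and its log2 fold change of 0.31 ± 0.14 (SE) did not pass (adjusted p = 0.112, edgeR). In the annotation 54.6% of the exonic bases of Sox4 overlap Gm26735 on the opposite strand, so reads of the pair cannot be told apart without the strand setting. Glis3 encodes a Krüppel-like zinc-finger transcription factor. Germ-free fat held 4.48 CPM of Glis3 at ZT02, 4.41 and 3.67 at ZT06, 2.09 and 2.36 at ZT10, 2.56 at ZT14, 6.51 at ZT18, and 7.53 and 5.50 at ZT22. Conventional fat held 11.6 and 11.5 CPM at ZT02, 6.38 and 5.11 at ZT06, 3.38 and 3.69 at ZT10, 3.17 and 5.31 at ZT14, 6.03 and 4.32 at ZT18, and 7.08 and 4.72 at ZT22. This is the shorter of 2 table entries with that symbol (exon length 1355 bases), and its identifier had no match in the annotation used. The longer entry (11141 bases) had a like curve, with peaks at ZT23.05 in germ-free fat and ZT0.87 in conventional fat, but its R2 was 0.45 in germ-free fat and 0.54 in conventional fat, below the threshold. Glis3 did not pass between the arms (log2 fold change -0.39 ± 0.16, SE; adjusted p = 0.0832, edgeR). It passed without conventional ZT18 replicate 2 (0.0406), conventional ZT22 replicate 2 (0.0333), germ-free ZT22 replicate 1 (0.0446) or germ-free ZT18 replicate 2 (0.0349), and the range over omissions reached 0.202.

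The last group holds ubiquitin ligase-type proteins, signalling proteins and 1 non-coding transcript. Trim67, a TRIM-family RING-finger protein known for its role in neurons, had the largest difference between the arms of the 23 genes (chr8:124793092-124834713, + strand). Germ-free fat held 21.6 CPM of Trim67 at ZT02, 8.76 and 8.32 at ZT06, 7.17 and 8.08 at ZT10, 14.7 at ZT14, 23.0 at ZT18, and 16.5 and 23.2 at ZT22. Conventional fat held 46.2 and 28.7 CPM at ZT02, 31.3 and 22.3 at ZT06, 19.5 and 17.9 at ZT10, 17.6 and 34.8 at ZT14, 38.6 and 31.9 at ZT18, and 36.7 and 41.8 at ZT22. All germ-free libraries lay below all conventional ones of the same time, at each of the 6 times. The mean was 14.6 ± 6.79 CPM in germ-free fat and 30.6 ± 9.63 CPM in conventional fat (SD, n = 9 and n = 12). The log2 fold change was -1.04 ± 0.15 (SE; adjusted p = 3.01e-04, edgeR). The neighbouring non-coding transcript Gm16163 (chr8:124831698-124863703, + strand), also called lower, ranged from 22.7 to 46.0 CPM with a median of 29.8 in germ-free fat and from 29.5 to 66.4 CPM with a median of 46.5 in conventional fat. Its log2 fold change was -0.47 ± 0.10 (SE; adjusted p = 0.00339, edgeR), and it did not pass with replicate number 2 alone (0.113), while single omissions gave up to 0.00804. In the annotation used, exons of Gm16163 overlap those of Trim67 and Gnpat on the same strand and 2810004N23Rik on the opposite strand. The overlap covers 50.8% of the exonic bases of Gm16163, and 1.60% of those of Trim67 are shared. The annotated Gm16163 has 1119 exonic bases and the counted one 5232, so the overlap of the counted exons is not known. The values of Gm16163 are uncertain and the pair is not independent.

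Lonrf3, a LON-domain RING-finger protein, is the third gene whose promoter is printed above (chrX:36328353-36362341, + strand). Germ-free fat held 7.25 CPM of Lonrf3 at ZT02, 2.44 and 5.28 at ZT06, 2.22 and 1.86 at ZT10, 5.36 at ZT14, 13.5 at ZT18, and 14.3 and 8.44 at ZT22. Conventional fat held 11.5 and 8.92 CPM at ZT02, 5.06 and 5.65 at ZT06, 5.37 and 6.12 at ZT10, 5.83 and 9.31 at ZT14, 14.6 and 14.3 at ZT18, and 8.44 and 10.9 at ZT22. It was the only one of the 23 genes with its highest conventional mean at ZT18, and the germ-free libraries lay below the conventional ones at ZT10. Its log2 fold change of -0.45 ± 0.18 (SE) did not pass (adjusted p = 0.0779, edgeR). It passed without conventional ZT22 replicate 1 (0.0411), germ-free ZT22 replicate 1 (0.0234) or germ-free ZT06 replicate 2 (0.0464), and the range over omissions reached 0.146.

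Rnf112, a RING-finger GTPase known from brain, was the lowest of the set per length of exon, at 0.367 CPM per kb over all libraries (chr11:61448442-61454131, - strand). Germ-free fat held 2.19 CPM of Rnf112 at ZT02, 1.41 and 0.774 at ZT06, 0.740 and 0.472 at ZT10, 0.830 at ZT14, 1.29 at ZT18, and 1.96 and 1.51 at ZT22. Conventional fat held 1.52 and 2.25 CPM at ZT02, 2.85 and 2.51 at ZT06, 1.59 and 1.48 at ZT10, 0.874 and 0.728 at ZT14, 0.615 and 0.967 at ZT18, and 1.77 and 1.94 at ZT22. The conventional libraries were highest at ZT06, when the germ-free ones had already come down, and the fitted peaks were ZT23.60 ± 0.82 h in germ-free fat and ZT4.04 ± 0.63 h in conventional fat (SE). That difference of -4.44 ± 1.03 h was the largest of the set. Its counts were 15 to 97 per library, and its level did not pass between the arms (log2 fold change -0.36 ± 0.23, SE; adjusted p = 0.262, edgeR). With the times that had 2 libraries in each arm alone it passed (-0.90 ± 0.25, SE; adjusted p = 0.0481), the highest over all alternatives other than single omissions being 0.639.

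Dapk1 encodes a calcium- and calmodulin-regulated kinase linked to cell death and autophagy (chr13:60601947-60763191, + strand). Germ-free fat held 203 CPM of Dapk1 at ZT02, 118 and 104 at ZT06, 81.4 and 93.9 at ZT10, 135 at ZT14, 186 at ZT18, and 199 and 176 at ZT22. Conventional fat held 195 and 176 CPM at ZT02, 138 and 144 at ZT06, 105 and 135 at ZT10, 104 and 147 at ZT14, 199 and 155 at ZT18, and 189.8 and 216 at ZT22. At ZT14, ZT18 and ZT22 the arms overlapped, while at ZT06 and ZT10 germ-free fat lay below conventional fat. The log2 fold change of -0.11 ± 0.09 (SE) did not pass (adjusted p = 0.395, edgeR). Rasl11a, a small Ras-like GTPase, ranged from 2.42 to 15.5 CPM with a median of 5.35 in germ-free fat and from 4.22 to 13.8 CPM with a median of 6.39 in conventional fat (chr5:146845071-146847726, + strand). Its highest germ-free value was the ZT02 library, and without it the log2 fold change was -0.51 (adjusted p = 0.00964, edgeR) in place of -0.31 ± 0.17 (SE; adjusted p = 0.187), the range over omissions reaching 0.356. Gbp6, an interferon-induced guanylate-binding protein, ranged from 12.0 to 31.7 CPM with a median of 16.6 in germ-free fat and from 12.8 to 33.6 CPM with a median of 17.3 in conventional fat. Its identifier carries the name Gm43302 in the annotation used (chr5:105214907-105293695, - strand), and 81.6% of its exonic bases are shared with Gbp10 and Gbp6 on the same strand, so its values are uncertain.

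In the level over the day, edgeR called 2 of the 23 genes higher in germ-free fat, 3 lower, and 18 did not pass. An unadjusted p under 0.05 was found for 10 of them, against 38.2% of all genes tested. Of all 18334 genes tested, 26.9% were called in either direction, so 5 of 23 is near that background. The median log2 fold change was -0.09 for the 23 genes, 15 being negative and 8 positive, 0.06 for the 41 dusk genes and 0.03 for all genes tested. Of the dusk genes 7 were called higher and 3 lower. For none of the 23 genes did all germ-free libraries lie beyond all conventional ones over the whole day. The genes were chosen for a large daily swing and the share over all genes was not counted, so nothing is read from this. The number of genes called higher changed when single libraries were left out, between 1 and 4. It was 2 without conventional ZT02 replicate 1 or 2 or ZT06 replicate 1, 3 without conventional ZT06 or ZT14 replicate 2 or germ-free ZT02 replicate 2, 4 without germ-free ZT06 or ZT10 replicate 2, and 1 otherwise. The number called lower was 3 to 5, and 5 without germ-free ZT02 replicate 2 or ZT22 replicate 1.

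**Figure D4:**
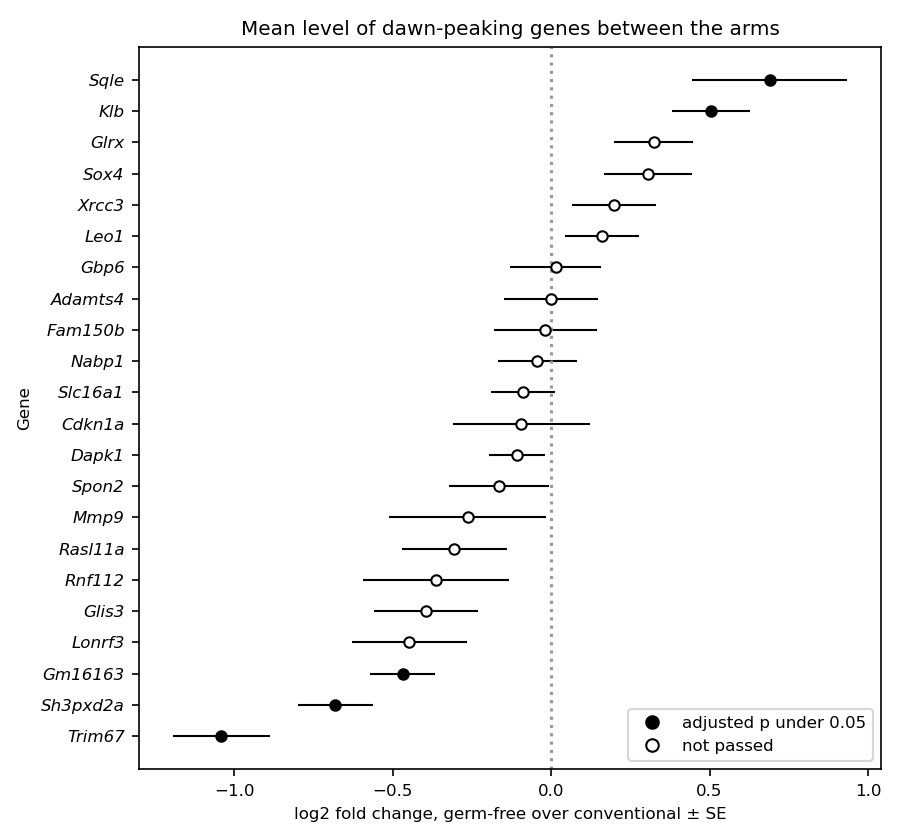
Log2 fold change (germ-free over conventional, edgeR) of the mean level over the day for 22 of the genes, with bars of 1 SE, and filled points where the adjusted p was under 0.05. Sqle and Klb are filled on the higher side, Trim67, Sh3pxd2a and Gm16163 on the lower side, and the other points are open.

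Other genes of pathways that act on the clock or on fat over the day were counted from lists, to be read against 15.3% of all genes tested called higher, 11.6% called lower and 38.2% with an unadjusted p under 0.05. Of 8 clock genes linked to REV-ERB and ROR, 3 were called higher in germ-free fat (Cry1 and Rora among them) and 0 lower in edgeR, 4 had an unadjusted p under 0.05, and the median log2 fold change was 0.06. Of 11 E-box and D-box clock genes, 1 was called higher and 0 lower. Of 15 insulin-induced lipogenic genes, 9 were called higher and 0 lower, 11 had an unadjusted p under 0.05, and the median was 0.65. Of 18 FOXO-linked fasting genes, 1 was called higher and 3 lower, and of 11 lipolysis genes 1 was called higher and 0 lower. Of 16 heat shock and protein folding genes 1 was called higher and 1 lower, while both cold-inducible RNA-binding genes were called higher (2 of 2). Of 16 immediate early genes 0 were called higher and 6 lower, and of 13 fibrillar collagen and matrix genes 0 were called higher and 11 lower.

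With each arm judged by itself, 1.46% of the 15489 genes kept had a dawn peak in germ-free fat and 0.439% in conventional fat. These shares come from 9 and 12 libraries and are not compared with each other. Arntl, Clock and Npas2 of the REV-ERB and ROR list had it in both arms. In the lipogenic list Thrsp, Pnpla3 and Insig1 had it in germ-free fat, Acly and Scd2 in conventional fat, and 0 in both.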

How the data were processed

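Per the labels' protocols, epididymal fat was disrupted in a bead mill, its RNA was taken up on columns, and libraries that keep the strand were prepared from total RNA depleted of ribosomal RNA. The submitters' processing notes list STAR 2.4.0i and the build mm10. For the counting program, its strand setting and its annotation, no entry is given in the sources read. The authors deposited raw read counts over exons, with an exon length per gene, and the counts were used as deposited. CPM was computed by column total. Gene positions came from GENCODE M21 (GRCm38), matched by gene identifier, and promoters from RefSeq (GRCm38.p6).

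The 24 h cosine was fitted by least squares in Python 3.11.15 with numpy 2.4.6. Levels were compared with edgeR 4.0.16 in R 4.3.3: the quasi-likelihood F test in 1 fit of 21 libraries with time as a 6-level factor, scaling by trimmed means of M values (TMM), the genes kept by filterByExpr, Benjamini-Hochberg adjustment over 18334 genes and a threshold of 0.05. The fit was checked on simulated counts. Alternatives changed the scaling, the filter, the covariates and the libraries used, or replaced edgeR by DESeq2 1.42.0. The fit of the libraries numbered 1 alone used a cosine and sine for time, and its germ-free libraries were at ZT06, ZT10 and ZT22 only.

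The genes and the gene lists were chosen with earlier results of these data known. Values per library are given for the 10 genes with the largest smaller amplitude of the arms, those called between arms (placeholder gene models such as Gm16163 being counted but passed over), the 3 with the largest difference in peak time, those on a list and those next to a threshold. Leo1, Slc16a1, Adamts4, Rasl11a, Gbp6 and Gm16163 lie outside that rule and were named after their values were seen. A few genes to which the rule points, 1 of the 23 among them, are counted but not reported here by name.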

Additional observations from a re-analysis of the deposited data

How the results depend on the processing

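The 2 genes called higher became 1 with no filter on low counts, with a replicate block and without the 1 library high in all ciliated duct markers, 5 with a cosine and sine per arm in place of the time factor, 4 in DESeq2, and 0 with the times that have 2 libraries in each arm alone or with the libraries numbered 2 or 1 alone; they were 1 to 4 over single omissions. The 3 genes called lower became 5 with the cosine and sine, 6 with the times that have 2 libraries in each arm, 1 with the libraries numbered 2, 5 without the library high in ciliated markers and 5 without those high in such markers other than Tppp3 (chosen after seeing the data); they were 3 to 5 over single omissions. Of the genes reported by name, those that did not pass in the reported fit but passed under an alternative other than a single omission were Glis3, Lonrf3, Sox4 and Glrx (cosine and sine), Lonrf3 and Glrx (DESeq2), Glis3 (exon length offset), Rasl11a, Rnf112 and Dapk1 (times with 2 libraries), Glis3 and Lonrf3 (without the library high in ciliated markers) and Lonrf3 and Rasl11a (without those high in such markers other than Tppp3). The share of all genes tested that was called changed as well. In the reported fit 15.3% were called higher and 11.6% lower. With the times that have 2 libraries in each arm the shares were 2.96% and 6.44%. With the libraries numbered 2 they were 2.45% and 2.57%, and with those numbered 1 the share called higher was 0.60%. The cause of these changes was not tested. Same-numbered libraries of the arms correlated in their deviations by 0.53 at ZT06, 0.09 at ZT10 and -0.23 at ZT22. These values differ in sign and cover those times alone, so whether the numbers pair the samples is not known. The replicate block lost the call of Sqle (adjusted p = 0.0634, edgeR).

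The sign of the log2 fold change was reversed only for genes that did not pass. These were Cdkn1a with libraries numbered 2 (0.12) and without those high in ciliated markers other than Tppp3 (0.0745), Fam150b with the cosine and sine (0.0045), Leo1 with libraries numbered 1 (-0.0931), and Nabp1 without those high in ciliated markers other than Tppp3 (0.0401). Adamts4 was reversed with the replicate block (0.0120), libraries numbered 2 (0.21), without the library high in ciliated markers (0.0176) and with an exon length offset (0.0127). Gbp6 was reversed with a mean CPM of at least 1 (-0.0052), the replicate block (-0.0144), the times with 2 libraries in each arm (-0.16) and libraries numbered 1 (-0.0934). Over single omissions the fold changes ran from -0.20 to 0.0086 for Cdkn1a, -0.16 to 0.0533 for Fam150b, -0.16 to 0.0624 for Adamts4, -0.11 to 0.0361 for Nabp1 and -0.0872 to 0.0967 for Gbp6.

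The rule itself kept 18 of the 23 genes among 20 with TMM-scaled CPM, and found 28 with a pseudocount of 0.1, 11 with 5, 39 and 14 at amplitudes of 0.3 and 0.5, and 34 and 11 at R2 of 0.5 and 0.7.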
